A study of Mus musculus with 30 samples.

Results

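The 10 genes described here encode transforming growth factor beta (TGF-β) ligands, receptors, Smads and feedback or target genes of the pathway. They were chosen by name and not by a rule on measured values, though earlier results of these data were known. They are the ligands Tgfb1, Tgfb2 and Tgfb3, the receptors Tgfbr1, Tgfbr2 and Tgfbr3, the signal transducer Smad3, the inhibitors Smad7 and Skil, and the target Tgfbi. All 10 were present among the 11137 genes of the deposited table, and they were followed in 30 libraries of sorted mouse mammary cells.

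TGF-β ligands are secreted in a latent form held in the matrix and, once released, bind a complex of type II and type I receptors at the cell surface. The type I receptor phosphorylates Smad2 and Smad3, which join Smad4, enter the nucleus and bind DNA, while Smad7 blocks the receptor and the SnoN protein encoded by Skil holds Smad complexes in check. In the mammary gland the pathway is known for restraining ductal growth, for the start of involution after weaning and for keeping matrix and contractile programmes active in basal cells.

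Luminal and basal cells were sorted by flow cytometry from virgin and parous mice, and their transcripts were counted from the 3′ end by QuantSeq with unique molecular identifiers (UMIs). The control mice, K8imTmG, carried K8rta, TETO CRE and the mTmG reporter, and the K8iΔRank mice carried in addition RANK fl/fl alleles, so that Cre induced by doxycycline under the Krt8 promoter deletes Rank (the receptor of Rankl, gene symbol Tnfrsf11a) in luminal cells and leaves it in basal cells. Mice of all groups were given doxycycline at 1 mg/ml in drinking water, from week 3 to week 8 of age according to the labels, whereas the methods give a later start. Parous glands were taken after involution, which in K8imTmG mice followed nursing and in K8iΔRank mice the loss of the litter, so parous genotypes also differ in lactation. Luminal libraries came from 3 virgin K8imTmG, 3 virgin K8iΔRank, 5 parous K8imTmG and 4 parous K8iΔRank mice, and basal libraries from 3 virgin K8imTmG, 4 virgin K8iΔRank, 4 parous K8imTmG and 4 parous K8iΔRank mice. Each library is named by the number of its mouse, so replicates are separate animals. Of the 17 mice, 13 gave both lineages. The sorted cells are mixtures (luminal cells include hormone-sensing cells and progenitors), and a lower level of a transcript in such bulk samples can mean fewer cells of a type or less RNA per cell, which cannot be told apart.

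Values are normalized counts, that is deduplicated reads divided by a size factor for the library, and libraries held 340445 to 3130419 reads. One read was worth between 0.381 and 5.43 normalized counts, so the low values of Tgfb1 and Tgfbi rest on few reads. Sorting was as labelled, with the summed level of 16 luminal markers at 8668 to 24216 in luminal and 1043 to 2851 in basal libraries, and that of 12 basal markers at 442 to 772 in luminal and 11996 to 19004 in basal libraries. The deleted gene, Tnfrsf11a, was not below its control range in luminal K8iΔRank libraries (11.5 to 23.8 in virgin and 27.0 to 41.1 in parous mice) against those of luminal K8imTmG libraries (9.57 to 18.6 and 12.8 to 64.9), but a 3′ tag need not lie in the deleted part of the gene and so does not check the deletion. Libraries also parted by Clec2d, which lay at 0.641 to 8.68 in 16 libraries and at 65.6 to 199 in 14, with nothing between. Depth went with it, with a median of 2478110 reads on the low and 878946 on the high side. The methods report a wide range of RNA integrity over the samples, but no value by library is given in the sources used here. Its relation to depth or to Clec2d was therefore not tested. All virgin luminal K8imTmG, all parous luminal K8iΔRank and all virgin basal K8iΔRank libraries were on the low side, and all virgin luminal K8iΔRank and all basal K8imTmG libraries were on the high side. The parous luminal K8imTmG group held 3 low and 2 high libraries and the parous basal K8iΔRank group 2 of each. In 10 of the 13 mice with both lineages the luminal and basal library fell on opposite sides, and the other 6 groups each lay on 1 side. Several of the 10 genes moved with it, as given below.

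Tgfbr3 and Tgfbr1 were higher in basal cells in every condition. Over all groups Tgfbi and Smad7 were higher in basal cells, and the ligands Tgfb3 and Tgfb1 in luminal cells. Tgfbi entered this test through its basal values alone, since no luminal value exceeded 10. Tgfb3 did not pass in virgin K8imTmG mice. Tgfb1 passed in neither genotype of virgin mice, was not tested within parous mice, and lost its call in several other fits, as given below. Of the 10 genes, 2 were higher in luminal cells and 4 in basal cells at a limma adjusted p below 0.05, a total of 6 against 55.7% of the 11133 genes tested (28.7% with the higher level in luminal and 27% in basal cells). The share of the 10 genes that differed was therefore near that of all genes. Tgfbr1 and Tgfbr3 were the 2 genes whose 15 luminal and 15 basal values did not overlap, as held in either direction for 9.57% of all genes tested. Skil, Smad3, Tgfb2 and Tgfbr2 did not pass the test over all groups.

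**Figure D1:**
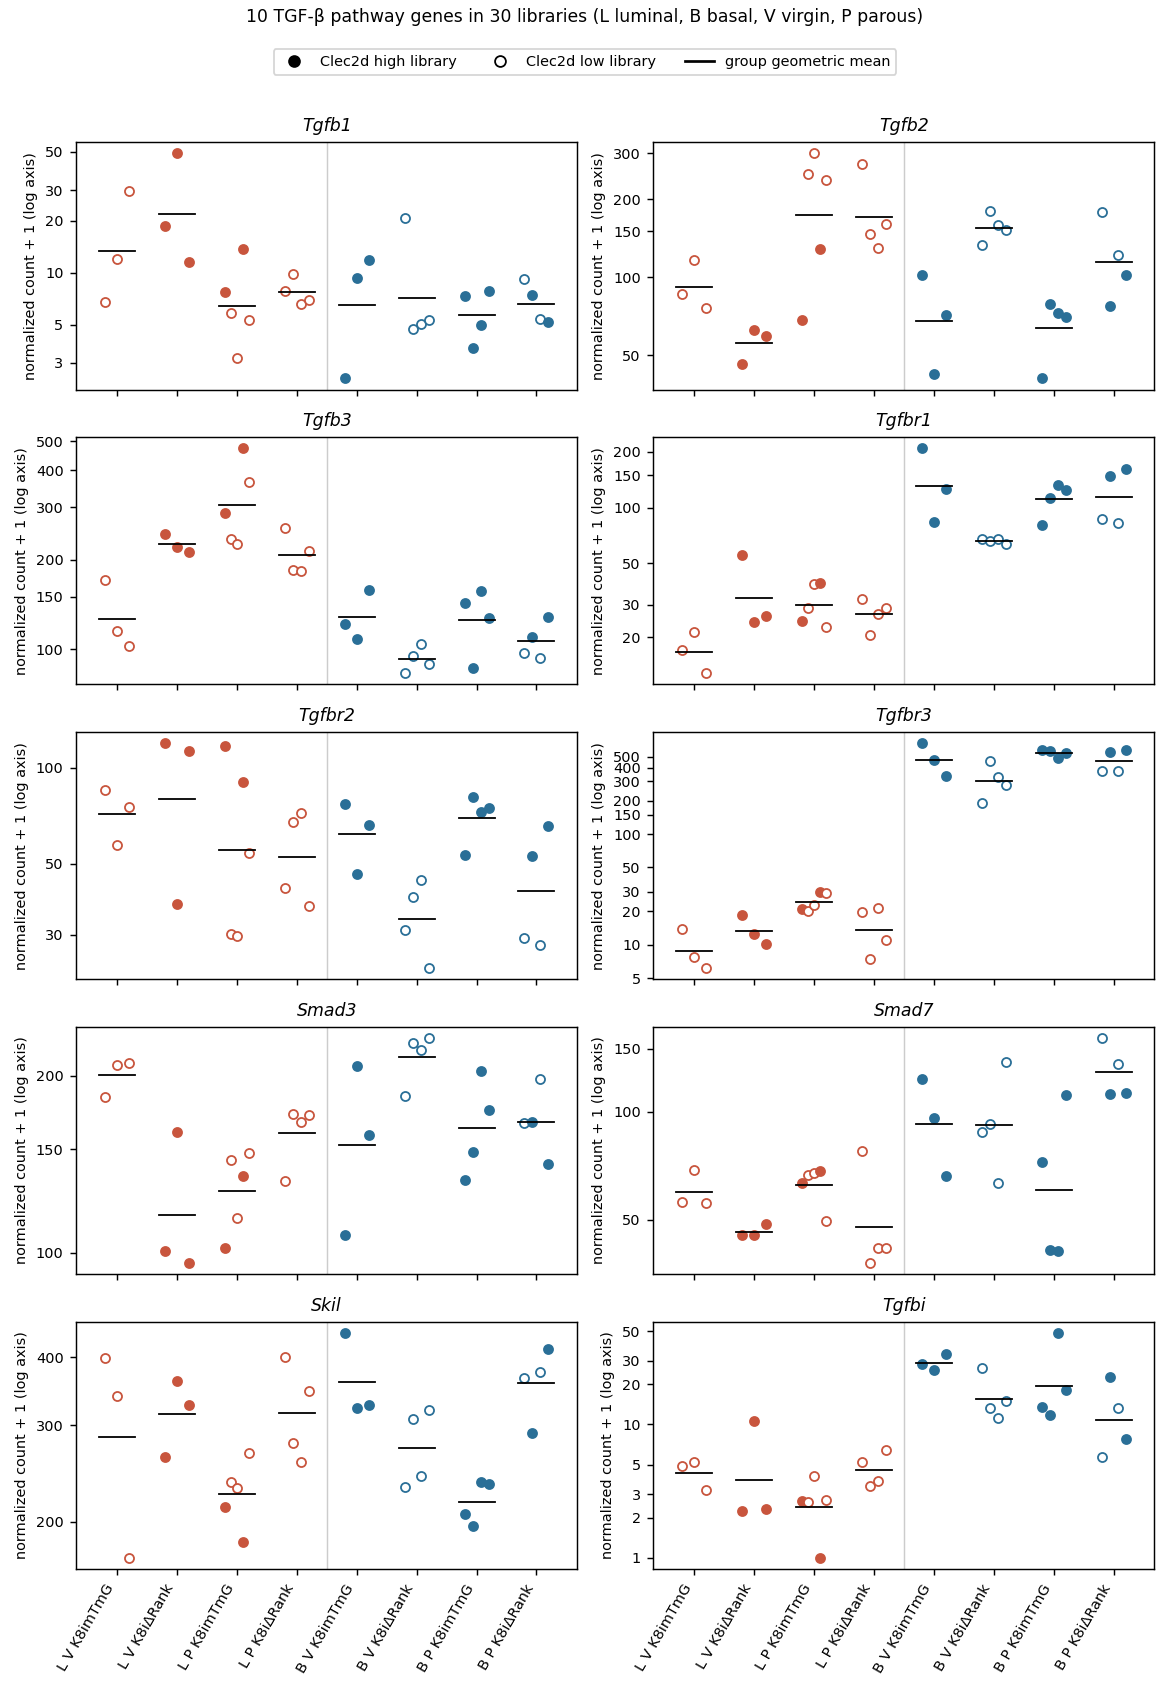
Each panel shows 1 gene, with the normalized count plus 1 on a log axis for each of 30 libraries in 8 groups. Red is luminal, blue is basal, filled points are libraries with high Clec2d, open points libraries with low Clec2d, and bars are group geometric means. Tgfbr1 and Tgfbr3 show no overlap between luminal and basal libraries, with luminal values of at most 54.3 and 28.8.

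Promoters were searched for CAGAC, the short element bound by Smad3 and Smad4, on both strands (GTCTG on the other strand), in the 300 bases from 250 before to 50 after the start in RefSeq (GRCm38.p6, another build than that of the gene coordinates below). It was found at least 1 time in 49.6% and at least 2 times in 16.2% of 32851 promoter windows. Windows of Smad3, Tgfb1, Tgfb2, Tgfbi and Tgfbr1 are described, and those of the other genes were not used here. Those of Smad3 and Tgfb1 and the upstream window of Tgfbr1 held no match, the second Tgfbr1 window 1 match, and those of Tgfb2 and Tgfbi 2 matches each. The stretches of 30 bases around the matches in the windows described are shown, with the element in capitals. A match is a description of the sequence and not a site of binding.
Tgfb2 (chr1:186706185-186706214, minus strand): cacaCAGACccttggtgatcaCAGACagtg
Tgfbr1, second window (chr4:47386001-47386030, plus strand): tttcgaactcagCAGACagccccacggtcc
Tgfbi, far match (chr13:56609336-56609365, plus strand): ggcttcctgcaGTCTGctagagagctatct
Tgfbi, near match (chr13:56609489-56609518, plus strand): agtagtggcgtgGTCTGggaggcgccggct

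Tgfb1, the TGF-β isoform most studied in immune and stromal cells, was low throughout (ENSMUSG00000002603.17, chr7:25386390-25404506, plus strand on GRCm39). Its normalized counts were 5.77, 11.01 and 28.7 in virgin luminal K8imTmG libraries and 17.7, 48.1 and 10.6 in virgin luminal K8iΔRank libraries. In parous luminal libraries they were 6.72, 4.80, 2.21, 12.8 and 4.33 in K8imTmG and 6.85, 8.84, 5.57 and 5.96 in K8iΔRank mice. The parous luminal K8imTmG values parted by Clec2d, with 4.80, 2.21 and 4.33 on the low side and 6.72 and 12.8 on the high side. The 2 highest values belonged to virgin luminal libraries, but the groups of each lineage mostly overlapped. Basal values were 1.44, 8.27 and 10.9 in virgin K8imTmG, 19.6, 3.72, 4.06 and 4.30 in virgin K8iΔRank, 6.28, 2.67, 3.98 and 6.83 in parous K8imTmG and 8.15, 6.38, 4.40 and 4.14 in parous K8iΔRank libraries. At most 3 reads stood behind 3 of 3 virgin and 3 of 4 parous basal K8imTmG values. The luminal minus basal difference over all groups was 0.77 (SE 0.30, limma adjusted p = 0.0292) on the scale of log2(normalized count + 1), which understates differences at such levels. This call was lost when mouse 822 was left out (0.58, limma adjusted p = 0.111), when mouse 538, 557 or 821 was left out (limma adjusted p = 0.0605, 0.0549 and 0.051) and with edgeR (adjusted p = 0.0527). All 7 neighbouring pairs of groups in the order of mean levels had overlapping SD bars, from 25.4 ± 19.9 (SD, n = 3) in virgin luminal K8iΔRank to 4.94 ± 1.95 (SD, n = 4) in parous basal K8imTmG libraries.

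Tgfb2, a ligand that needs the co-receptor encoded by Tgfbr3 for tight binding to the type II receptor, passed the test in comparisons within and between lineages (ENSMUSG00000039239.16, chr1:186354985-186438294, minus strand). In virgin luminal libraries its normalized counts were 85.2, 116 and 75.1 for K8imTmG and 45.4, 61.5 and 58.1 for K8iΔRank, without overlap. Parous luminal K8imTmG libraries had 67.2, 248, 299, 128 and 235 and parous luminal K8iΔRank libraries 272, 146, 129 and 159, so that every parous K8iΔRank library was above every virgin K8iΔRank library. In basal cells the values were 101, 41.3 and 70.6 in virgin K8imTmG and 132, 179, 157 and 150.4 in virgin K8iΔRank libraries, again without overlap but in the opposite direction to luminal cells. Parous basal libraries had 39.8, 77.6, 71.7 and 69.4 in K8imTmG and 178, 76.5, 121 and 101 in K8iΔRank mice, which overlapped slightly. Group means ran from 195 ± 94.9 (SD, n = 5) in parous luminal K8imTmG to 55.0 ± 8.49 (SD, n = 3) in virgin luminal K8iΔRank libraries, and all 7 neighbouring pairs in that order overlapped within their SD.

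Tgfb2 passed 4 of these tests. It rose with parity in luminal K8iΔRank cells, by a log2 difference of 1.61 (SE 0.26, limma adjusted p = 0.00426), a call that was lost when all luminal libraries shared 1 fit (limma adjusted p = 0.0527). It was higher in virgin basal K8iΔRank than in virgin basal K8imTmG cells by 1.20 (SE 0.30, limma adjusted p = 0.0377), and this call was lost on leaving out any 1 of the 7 libraries other than K8imTmG 531 (limma adjusted p = 0.0533 to 0.0946) and with edgeR (adjusted p = 0.0555). Between lineages Tgfb2 was lower in luminal cells of virgin K8iΔRank mice, by a log2 difference of -1.48 (SE 0.22, limma adjusted p = 0.000558), and higher in luminal cells of parous K8imTmG mice, by 1.44 (SE 0.40, limma adjusted p = 0.0178). The second of these was lost without basal library 532 (limma adjusted p = 0.0619) and with only the libraries on the high side of Clec2d (0.56, limma adjusted p = 0.323). In parous K8iΔRank mice the difference was 0.57 (SE 0.29, limma adjusted p = 0.145), which passed without basal library 787 (0.78, limma adjusted p = 0.0426). Whether the lineage difference itself differs between conditions was not tested.

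Within the groups that held both sides, Tgfb2 was higher where Clec2d was low. Parous luminal K8imTmG libraries had 248, 299 and 235 on the low side and 67.2 and 128 on the high side, and parous basal K8iΔRank libraries 178 and 121 on the low side and 76.5 and 101 on the high side. Both comparisons in which Tgfb2 passed within a lineage, parity in luminal K8iΔRank and genotype in virgin basal cells, set low-side against high-side libraries, with Tgfb2 higher in the low-side group, and the same holds for its virgin K8iΔRank lineage difference. In these the split and the condition cannot be told apart.

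Tgfb3, the isoform known to be induced in luminal cells when milk stays in the gland, was higher in luminal than in basal cells (ENSMUSG00000021253.9, chr12:86102756-86126301, minus strand). Its normalized counts were 169, 114 and 102 in virgin luminal K8imTmG libraries and 244, 219 and 211 in virgin luminal K8iΔRank libraries, without overlap. Parous luminal libraries had 286, 234, 225, 473 and 365 in K8imTmG and 255, 184, 182 and 213 in K8iΔRank mice, and the K8imTmG values lay above every virgin K8imTmG value. Basal values were 121, 107 and 158 in virgin K8imTmG, 81.9, 93.6, 103 and 88.1 in virgin K8iΔRank, 142, 85.6, 155 and 126 in parous K8imTmG and 96.1, 109, 92.4 and 127 in parous K8iΔRank libraries. Basal groups overlapped one another except virgin K8imTmG and virgin K8iΔRank, and virgin luminal K8imTmG libraries overlapped basal ones. The parous basal K8iΔRank values parted by Clec2d, at 96.1 and 92.4 on the low side and 109 and 127 on the high side. The luminal minus basal difference was 0.88 (SE 0.12, limma adjusted p = 1.56e-07) over all groups, 1.28 (SE 0.26, limma adjusted p = 0.00243) in parous K8imTmG, 1.29 (SE 0.19, limma adjusted p = 0.000608) in virgin K8iΔRank and 0.97 (SE 0.18, limma adjusted p = 0.00132) in parous K8iΔRank mice. In virgin K8imTmG mice it was -0.02 (SE 0.28, limma adjusted p = 0.959). In the order of group means, from 316 ± 104 (SD, n = 5) in parous luminal K8imTmG to 91.6 ± 8.92 (SD, n = 4) in virgin basal K8iΔRank libraries, the SD bars failed to overlap at 1 of 7 steps, between parous luminal K8iΔRank and virgin basal K8imTmG.

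The 3′ end of Tgfb3 is overlapped on the opposite strand by Ttll5. The library kit is directional, but use of strand in the counting is not given in the sources used here, so whether the 2 genes share reads was not tested. Ttll5 did not pass the lineage test over all groups (0.15, SE 0.21, limma adjusted p = 0.563), and in luminal libraries it lay at 37.8 to 43.4 in virgin K8imTmG and 16.4 to 22.5 in virgin K8iΔRank mice, opposite to Tgfb3. A lncRNA that is not in the table, Gm35546, covers the 3′ end of Tgfb2 in the same way.

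Tgfbr1, the type I receptor kinase that phosphorylates Smad2 and Smad3, was higher in basal cells in all 4 conditions (ENSMUSG00000007613.17, chr4:47353134-47414931, plus strand). Luminal normalized counts were 16.0, 20.4 and 11.8 in virgin K8imTmG and 54.3, 23.1 and 25.1 in virgin K8iΔRank libraries. In parous luminal libraries they were 23.5, 27.6, 37.5, 38.3 and 21.6 in K8imTmG and 31.2, 19.7, 25.6 and 27.8 in K8iΔRank mice. The virgin K8imTmG libraries were the lowest luminal group and did not overlap the virgin K8iΔRank libraries. Basal values were 208, 82.7 and 125 in virgin K8imTmG, 66.9, 65.1, 67.0 and 62.3 in virgin K8iΔRank, 79.5, 112, 131 and 124 in parous K8imTmG and 85.8, 147, 81.4 and 161 in parous K8iΔRank libraries. Virgin basal K8iΔRank values were the lowest of the basal groups and lay close together. Group means fell from 139 ± 63.9 (SD, n = 3) in virgin basal K8imTmG to 16.1 ± 4.34 (SD, n = 3) in virgin luminal K8imTmG libraries. Neighbours in that order had SD bars apart at 3 of 7 steps: below parous basal K8imTmG, below virgin basal K8iΔRank and above virgin luminal K8imTmG. The luminal minus basal difference was -1.99 (SE 0.16, limma adjusted p = 4.59e-12) over all groups and ranged from -2.96 in virgin K8imTmG to -1.02 in virgin K8iΔRank mice. The second of these had a limma adjusted p of 0.0286, which became 0.0557 with a replicate block by mouse, which also drops unpaired basal library 820, and 0.0581 to 0.0993 without the luminal or basal library of mouse 822 or 825.

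In basal cells Tgfbr1 moved with the split. Parous basal K8iΔRank libraries had 147 and 161 on the high side and 85.8 and 81.4 on the low side. The low-side values lay within the range of the parous basal K8imTmG libraries, which were all high, and above that of the virgin basal K8iΔRank libraries, which were all low. The genotype difference in virgin basal cells was -0.97 (SE 0.30, limma adjusted p = 0.0705), and it passed with edgeR (adjusted p = 0.0432), with DESeq2 (adjusted p = 0.0187), without K8imTmG library 538 (limma adjusted p = 0.0451) and with all basal libraries in 1 limma fit (adjusted p = 0.0389). In that comparison the split and the genotype cannot be told apart.

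Tgfbr2, the type II receptor that binds ligand first and activates the type I receptor, overlapped widely between lineages (ENSMUSG00000032440.15, chr9:115913361-116004800, minus strand). Luminal normalized counts were 83.9, 56.1 and 74.3 in virgin K8imTmG and 119, 36.5 and 112 in virgin K8iΔRank libraries. Parous luminal values were 116, 29.2, 28.7, 89.5 and 53.2 in K8imTmG and 41.1, 66.8, 71.3 and 35.8 in K8iΔRank libraries. The groups overlapped, and the parous K8imTmG values parted by Clec2d, with 29.2, 28.7 and 53.2 on the low side and 116 and 89.5 on the high side. Basal values were 76.1, 45.5 and 65.2 in virgin K8imTmG, 30.01, 38.5, 43.3 and 22.6 in virgin K8iΔRank, 52.3, 80.2, 71.7 and 73.9 in parous K8imTmG and 28.3, 51.8, 26.8 and 64.7 in parous K8iΔRank libraries. Parous basal K8iΔRank libraries parted in the same way, at 28.3 and 26.8 on the low side and 51.8 and 64.7 on the high side. The luminal minus basal difference over all groups was 0.37 (SE 0.21, limma adjusted p = 0.139) and was 0.72 (limma adjusted p = 0.00141) with the side as a term and 0.54 (limma adjusted p = 0.028) without mouse 822. Within conditions it passed in virgin K8iΔRank mice, by 1.25 (SE 0.42, limma adjusted p = 0.0438), where it was lost with the replicate block and library 820 dropped (limma adjusted p = 0.0819) and without luminal library 821 or 825 or basal library 820 or 825 (limma adjusted p = 0.0754 to 0.17). All 7 neighbouring pairs of group means overlapped within their SD, between 89.1 ± 45.7 (SD, n = 3) in virgin luminal K8iΔRank and 33.6 ± 9.19 (SD, n = 4) in virgin basal K8iΔRank libraries.

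Tgfbr3, also called betaglycan, a co-receptor that presents ligand to the type II receptor, had the largest lineage difference of the 10 genes (ENSMUSG00000029287.16, chr5:107249402-107437623, minus strand). Luminal normalized counts were 12.8, 6.82 and 5.15 in virgin K8imTmG and 17.7, 11.5 and 9.25 in virgin K8iΔRank libraries. Parous luminal values were 20.2, 19.2, 22.1, 28.8 and 28.6 in K8imTmG and 18.6, 6.39, 20.6 and 9.93 in K8iΔRank libraries. Parous K8imTmG values lay above all virgin K8imTmG values. In basal cells the values were 665, 463 and 337 in virgin K8imTmG, 192, 458, 326 and 279 in virgin K8iΔRank, 571, 564, 489.7 and 536 in parous K8imTmG and 368, 548, 373 and 573 in parous K8iΔRank libraries. The lowest basal library thus stood several times above the highest luminal one. The luminal minus basal difference was -4.94 (SE 0.16, limma adjusted p = 1.79e-20) over all groups, and it was -5.75 in virgin K8imTmG, -4.47 in parous K8imTmG, -4.49 in virgin K8iΔRank and -5.07 in parous K8iΔRank mice. In each of the 4 conditions it passed limma, with adjusted p between 3.27e-08 and 1.68e-05. Levels ran from 540.3 ± 37.1 (SD, n = 4) in parous basal K8imTmG to 8.26 ± 4.03 (SD, n = 3) in virgin luminal K8imTmG libraries, and the step between the lineages was the 1 of 7 at which SD bars did not overlap. The parous basal K8iΔRank libraries again parted by Clec2d, at 548 and 573 on the high side and 368 and 373 on the low side, while parous luminal K8imTmG libraries of both sides overlapped. An unclassified transcript on the same strand, Gm43423, overlaps Tgfbr3 but does not cover the 3′ end of its canonical transcript. It had a lineage difference of -2.37 (SE 0.27, limma adjusted p = 9.79e-09), and whether reads are split between the 2 was not tested.

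**Figure D2:**
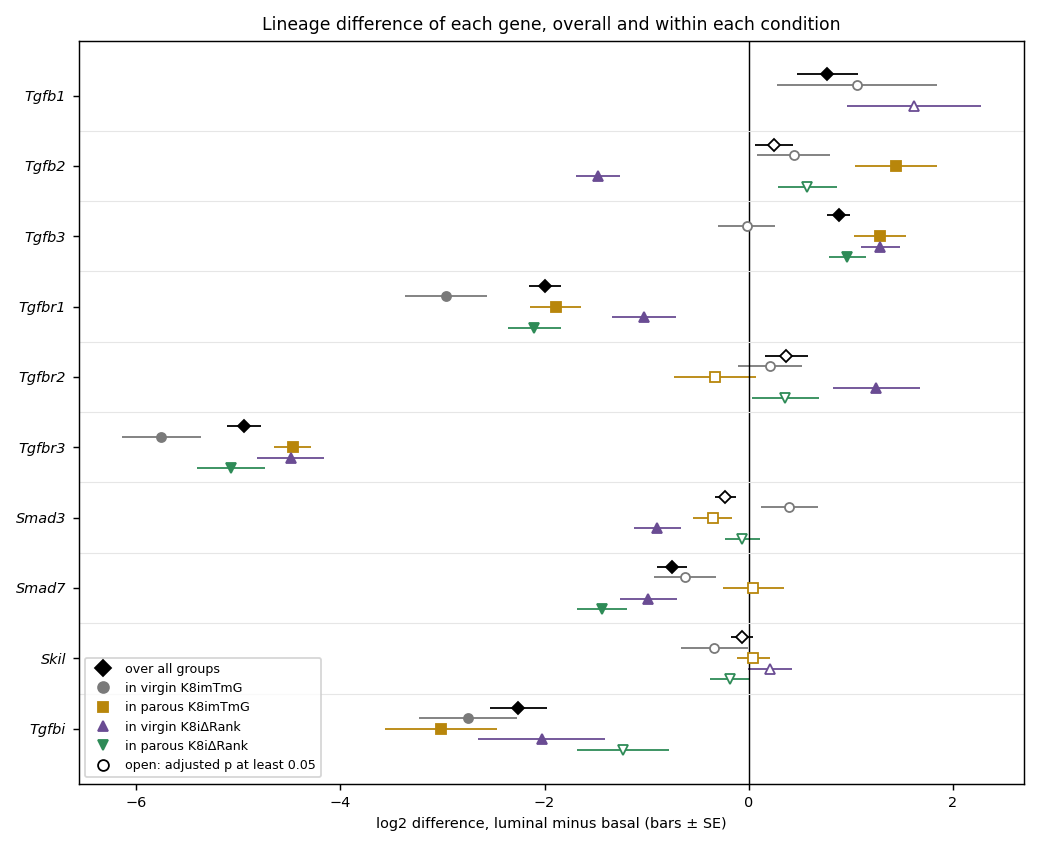
Log2 difference of luminal minus basal cells for each gene, over all groups (black diamonds) and within each of 4 conditions, with SE bars. Filled symbols have a limma adjusted p below 0.05. Tgfbr3 and Tgfbr1 lie left of 0 in every condition, Tgfb2 changes side, and Skil lies between -0.34 and 0.21.

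Smad3, the transducer activated by TGF-β receptors, did not pass the lineage test over all groups (ENSMUSG00000032402.14, chr9:63554049-63665476, minus strand). Virgin luminal normalized counts were 183, 208 and 209 in K8imTmG and 99.7, 159.6 and 95.1 in K8iΔRank libraries, without overlap. In parous luminal libraries they were 101, 143, 113, 134 and 147 in K8imTmG and 131, 171, 166 and 170.3 in K8iΔRank mice, with K8imTmG values below every virgin K8imTmG value. Basal values were 106, 207 and 158 in virgin K8imTmG, 183, 226, 220.1 and 231 in virgin K8iΔRank, 132, 147, 203 and 174 in parous K8imTmG and 165, 166, 197 and 141 in parous K8iΔRank libraries. All basal groups overlapped one another. The lineage difference over all groups was -0.23 (SE 0.10, limma adjusted p = 0.0622), and it passed with edgeR (adjusted p = 0.0232), with the side as a term (limma adjusted p = 0.0323) and without mouse 531, 532, 820 or 822 (limma adjusted p = 0.024 to 0.0475). In virgin K8iΔRank mice Smad3 was lower in luminal cells by a log2 difference of -0.89 (SE 0.23, limma adjusted p = 0.0139), which was lost without luminal library 821 or 825 (limma adjusted p = 0.0573 and 0.0534). Group means ran from 215 ± 21.6 (SD, n = 4) in virgin basal K8iΔRank to 118 ± 36.0 (SD, n = 3) in virgin luminal K8iΔRank libraries, and all 7 neighbouring pairs overlapped within their SD.

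Smad7, the inhibitory Smad that targets the activated receptor for degradation, was higher in basal cells over all groups (ENSMUSG00000025880.14, chr18:75500374-75529006, plus strand). Luminal normalized counts were 55.1, 67.6 and 54.5 in virgin K8imTmG and 44.2, 44.2 and 47.6 in virgin K8iΔRank libraries, without overlap. Parous luminal values were 62.2, 65.6, 66.6, 67.1 and 48.5 in K8imTmG and 76.9, 36.8, 40.7 and 40.7 in K8iΔRank libraries, where mouse 787 stood apart. Basal values were 122, 95.1 and 65.2 in virgin K8imTmG, 86.6, 91.2, 62.3 and 136 in virgin K8iΔRank, 71.2, 40.1, 39.8 and 110.3 in parous K8imTmG and 159.6, 111, 135 and 112 in parous K8iΔRank libraries. Parous basal K8iΔRank values all lay above the parous K8imTmG values, by a narrow margin at 111 against 110.3. They parted by Clec2d as well, at 159.6 and 135 on the low side and 111 and 112 on the high side, and the parous basal K8imTmG libraries were all high. Luminal minus basal, the log2 difference was -0.75 (SE 0.15, limma adjusted p = 8.36e-05) over all groups, -1.44 (SE 0.25, limma adjusted p = 0.000736) in parous K8iΔRank and -0.98 (SE 0.28, limma adjusted p = 0.0201) in virgin K8iΔRank mice. The virgin K8iΔRank call was lost without luminal library 821 or 822 or basal library 825 (limma adjusted p = 0.0534 to 0.0608). In parous K8imTmG mice the difference was 0.05 (SE 0.30, limma adjusted p = 0.925), and the difference between genotypes in this lineage contrast was not tested. Group means ran from 129 ± 23.1 (SD, n = 4) in parous basal K8iΔRank to 45.3 ± 1.94 (SD, n = 3) in virgin luminal K8iΔRank libraries, with all 7 neighbouring pairs overlapping within their SD.

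Skil, which encodes the Smad co-repressor SnoN and is itself a rapid TGF-β target, was not called by limma between lineages (ENSMUSG00000027660.18, chr3:31148816-31176740, plus strand). Luminal normalized counts were 398, 339 and 171 in virgin K8imTmG and 261, 361 and 326 in virgin K8iΔRank libraries. Parous luminal values were 212, 236, 229.9, 182 and 266 in K8imTmG and 399, 277, 256 and 346 in K8iΔRank libraries, which overlapped. The parous luminal K8imTmG values parted by Clec2d, at 236, 229.9 and 266 on the low side and 212 and 182 on the high side. Basal values were 442, 322 and 326 in virgin K8imTmG, 231, 307, 241 and 319 in virgin K8iΔRank, 205, 195, 235 and 233 in parous K8imTmG and 366, 290.1, 375 and 413 in parous K8iΔRank libraries. Parous basal K8iΔRank values all lay above parous basal K8imTmG values, which in turn lay below all virgin basal K8imTmG values. The lineage difference over all groups was -0.07 (SE 0.11, limma adjusted p = 0.622), and within conditions it ranged from -0.34 to 0.21 with no call. The highest and lowest group means were 364 ± 68.3 (SD, n = 3) in basal libraries of virgin K8imTmG mice and 217 ± 19.97 (SD, n = 4) in those of parous K8imTmG mice, and all 7 neighbouring pairs overlapped within their SD.

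Tgfbi, a secreted matrix protein named for its induction by TGF-β, was low in basal cells and close to the limit of counting in luminal cells (ENSMUSG00000035493.12, chr13:56757336-56787375, plus strand). Luminal normalized counts were 3.84, 4.19 and 2.21 in virgin K8imTmG, 1.26, 9.61 and 1.32 in virgin K8iΔRank, 1.68, 1.60, 3.09, 0 and 1.73 in parous K8imTmG and 4.19, 2.46, 2.79 and 5.46 in parous K8iΔRank libraries. At most 3 reads stood behind 5 of these 15 values. Basal values were 27.3, 24.8 and 32.6 in virgin K8imTmG, 25.4, 12.4, 10.2 and 14.0 in virgin K8iΔRank, 12.6, 10.7, 47.8 and 17.1 in parous K8imTmG and 4.72, 21.5, 12.3 and 6.72 in parous K8iΔRank libraries. Basal libraries were mostly above luminal ones, but luminal values reached 9.61 in virgin K8iΔRank library 822, above the lowest parous basal K8iΔRank value of 4.72. No luminal value exceeded 10, so Tgfbi entered the lineage tests through its basal values alone. Between luminal and basal cells the log2 difference was -2.26 (SE 0.28, limma adjusted p = 4.61e-08) over all groups. It also passed in virgin K8imTmG (-2.75), parous K8imTmG (-3.02) and virgin K8iΔRank mice (-2.03, limma adjusted p = 0.0288), the last of which was lost with the replicate block and library 820 dropped (limma adjusted p = 0.0793) and without library 821 or 825 of luminal or 820 or 825 of basal cells (limma adjusted p = 0.0608 to 0.105). In parous K8iΔRank mice it was -1.23 (SE 0.45, limma adjusted p = 0.0513), and it passed with edgeR (adjusted p = 0.0379), with DESeq2 (adjusted p = 0.0188) and without basal library 787 or 830 (limma adjusted p = 0.0181 and 0.0495). All 7 neighbouring pairs of group means overlapped within their SD, from 28.2 ± 3.99 (SD, n = 3) in virgin basal to 1.62 ± 1.10 (SD, n = 5) in parous luminal K8imTmG libraries.

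Markers of other cell types also differed between the lineages, and Tgfbi, Tgfbr1 and Tgfbr3 are expressed by such cells too. The summed level of 10 of 11 fibroblast markers in the table was 116 to 968 in luminal and 1176 to 2304 in basal libraries, that of 8 of 10 endothelial markers 17.2 to 142 and 111 to 1409, and that of 6 of 15 leukocyte markers 12.8 to 65.4 and 83.7 to 211. Among the endothelial markers Vwf went the other way, at 7.50 to 82.3 in luminal and 0 to 17.3 in basal libraries. The fibroblast markers of highest basal median were Postn (449 to 1299) and Dcn (311 to 677). The 3 of 6 pericyte markers in the table summed to 96.8 to 214 in luminal and 65.5 to 278 in basal libraries, but they went opposite ways. Rgs5 was at 1.60 to 20.1 in luminal and 38.0 to 228 in basal libraries, and Pdgfrb at 0 to 6.39 and 8.37 to 43.5. Notch3 was at 94.4 to 203 in luminal and 8.15 to 35.8 in basal libraries. Fabp4, the 1 of 5 adipocyte markers in the table, was at 4.40 to 50.5 and 111 to 2587. No marker in the table was at 0 in all libraries. Antibodies against CD45 and CD31 were used in the sort to leave out lymphocytes and endothelial cells. The part of these cells in the lineage differences of the 10 genes was not tested.

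Within each condition the lineage comparison called 3 of the 10 genes tested in virgin K8imTmG mice (against 36.2% of all genes), 5 of 9 in parous K8imTmG mice (against 30.7%), 8 of 10 in virgin K8iΔRank mice (against 35.9%) and 4 of 9 in parous K8iΔRank mice (against 37%). Tgfb1 was the gene not tested in the parous comparisons, where too few of its values exceeded 10. In virgin K8iΔRank mice all 3 luminal libraries were on the high and all 4 basal libraries on the low side of Clec2d, and in virgin K8imTmG mice the reverse, so lineage and split cannot be told apart in either. The count of 8 fell to 4 without luminal library 821 or 825 or basal library 825, and it was 7 without basal library 820 and 6 with the replicate block, which drops that library too. With only the shared side of the split, parous K8imTmG mice kept calls of Tgfb3, Tgfbr1, Tgfbr3 and Tgfbi and parous K8iΔRank mice kept calls of Tgfb3, Tgfbr1, Tgfbr3 and Smad7.

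Deletion of Rank in luminal cells was compared first in virgin luminal cells, where 0 of 9 genes tested passed (against 0.984% of all genes). Tgfb3 (0.84, SE 0.26, limma adjusted p = 0.108) and Tgfbr1 (0.97, SE 0.41, limma adjusted p = 0.202) were above, and Tgfb2 (-0.72, SE 0.27, limma adjusted p = 0.165), Smad3 (-0.79, SE 0.27, limma adjusted p = 0.128) and Smad7 (-0.37, SE 0.25, limma adjusted p = 0.417) below, all K8imTmG libraries. Ranges of the groups failed to overlap for these 5 of 9 genes, compared with 28.3% of all genes tested. All K8imTmG libraries were on the low and all K8iΔRank libraries on the high side of the split, so the genotypes and the sides of the split cannot be told apart here. Tgfbi was not tested in the luminal comparisons, because its values were 10 or less.

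In parous luminal cells 0 of 8 genes passed (against 0.0991% of all genes) and groups overlapped for all 8, whereas 9.73% of all genes had groups apart. The log2 difference of Tgfbr3 was -0.84 (SE 0.34, limma adjusted p = 0.209), that of Tgfb3 -0.56 (SE 0.23, limma adjusted p = 0.227) and that of Skil 0.49 (SE 0.18, limma adjusted p = 0.178). With only the low-side libraries, 3 K8imTmG against 4 K8iΔRank, 0 of 8 genes passed as well. Skil was higher in the low-side than in the high-side K8imTmG libraries, and all K8iΔRank libraries were low.

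Virgin basal cells keep Rank in both genotypes and lie beside Rank-deleted luminal cells in K8iΔRank mice. In them Tgfb2 was higher in K8iΔRank libraries (values above), the 1 of 10 genes that passed (against 8.99% of all genes). The receptors Tgfbr1 (-0.97, limma adjusted p = 0.0705), Tgfbr2 (-0.88, limma adjusted p = 0.105) and Tgfbr3 (-0.65, limma adjusted p = 0.211) had lower means in K8iΔRank libraries without passing. Groups did not overlap for Tgfb2, Tgfb3, Tgfbr1, Tgfbr2 and Skil, 5 of 10 genes compared with 28.2% of all genes. All K8imTmG libraries were on the high and all K8iΔRank libraries on the low side, the reverse of virgin luminal cells. In virgin basal cells too, the genotypes and the sides of the split cannot be told apart.

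Parous basal cells showed higher values of both inhibitors in K8iΔRank libraries. The log2 difference of Skil was 0.72 (SE 0.18, limma adjusted p = 0.064) and that of Smad7 1.09 (SE 0.31, limma adjusted p = 0.0834), so 0 of 9 genes passed (against 0.906% of all genes). Skil passed with DESeq2 (adjusted p = 0.0111) and without library 794 (limma adjusted p = 0.0194), as did Tgfb2 without that library (limma adjusted p = 0.0402), and Smad7 without library 558 (limma adjusted p = 0.036). Skil and Smad7 were the 2 of 9 genes whose groups did not overlap, compared with 12% of all genes. Skil was 290.1 and 413 in the high-side and 366 and 375 in the low-side K8iΔRank libraries, so both sides lay above the K8imTmG libraries, which were all high. With only the high-side libraries the difference of Skil was 0.68 (limma adjusted p = 0.377) and that of Smad7 0.89 (limma adjusted p = 0.552). Tgfb2 (0.85, SE 0.29, limma adjusted p = 0.123) and Tgfbr2 (-0.76, SE 0.30, limma adjusted p = 0.163) differed in the direction in which low-side libraries differ from high-side ones.

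**Figure D3:**
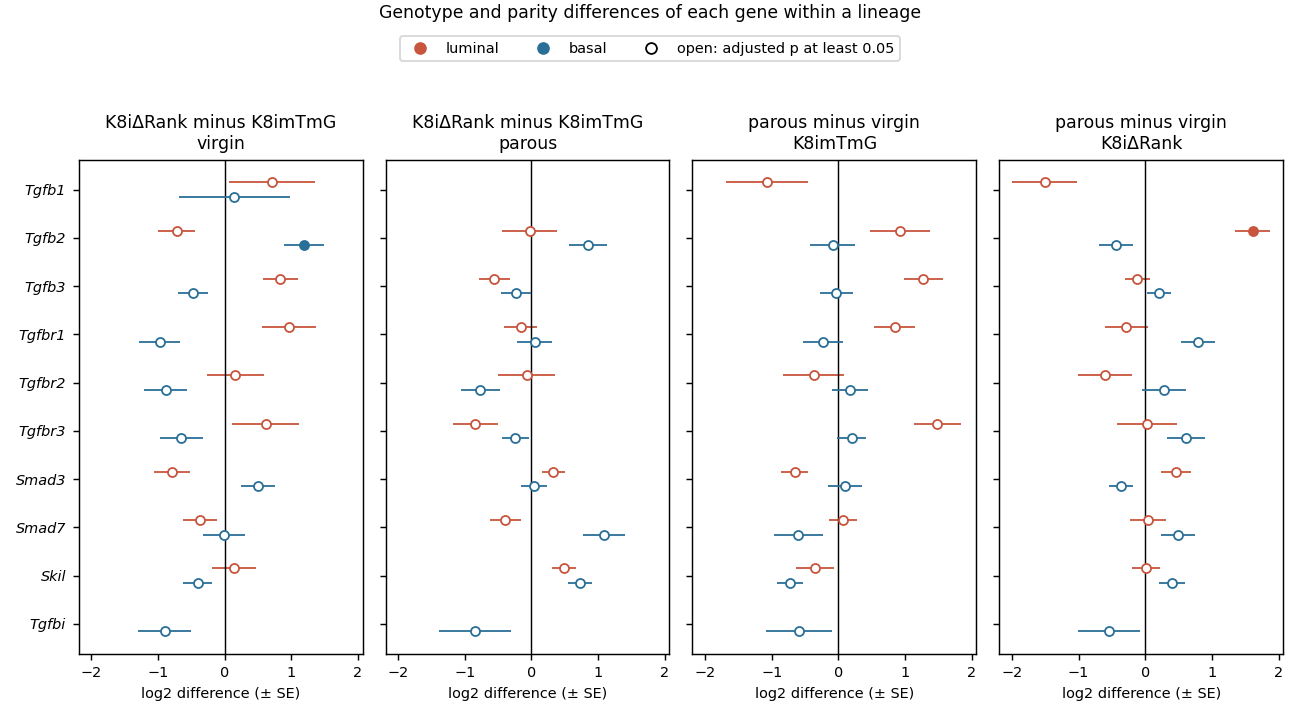
Log2 differences with SE bars for each gene in luminal (red) and basal (blue) cells, between genotypes in virgin and parous mice and between stages in K8imTmG and K8iΔRank mice. Filled symbols have a limma adjusted p below 0.05, which holds for Tgfb2 in virgin basal cells (genotype) and in luminal K8iΔRank cells (parity). In virgin mice Tgfb2, Tgfb3, Tgfbr1, Tgfbr2, Tgfbr3, Smad3 and Skil lie on opposite sides of 0 in the 2 lineages, and Tgfb1 and Smad7 on the same side.

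Parity in luminal K8imTmG cells was accompanied by higher means of Tgfbr3, Tgfb3, Tgfb2 and Tgfbr1. The log2 differences, parous minus virgin, were 1.48 (SE 0.35, limma adjusted p = 0.0597) for Tgfbr3, 1.27 (SE 0.29, limma adjusted p = 0.0568) for Tgfb3, 0.92 (SE 0.45, limma adjusted p = 0.263) for Tgfb2 and 0.84 (SE 0.31, limma adjusted p = 0.158) for Tgfbr1, so 0 of 9 genes passed (against 2.2% of all genes). With only the low-side libraries, 3 virgin and 3 parous, Tgfb2 (1.51), Tgfb3 (1.09) and Tgfbr3 (1.46) passed, with limma adjusted p of 0.0147, 0.0383 and 0.042. Leaving out the high-side parous library 494 alone called the same 3 genes. Smad3 had the opposite sign, -0.66 (SE 0.20, limma adjusted p = 0.109). Groups did not overlap for Tgfb3, Tgfbr1, Tgfbr3 and Smad3, 4 of 9 genes compared with 16.9% of all genes.

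In luminal K8iΔRank cells Tgfb2 was the 1 of 9 genes that passed with parity (against 16% of all genes), and Tgfbr3 (0.02), Tgfb3 (-0.12) and Tgfbr1 (-0.29) were near 0 or below. Only virgin values of Tgfb1 exceeded 10, so this gene entered the test through the group where it was higher. Its log2 difference was -1.51 (SE 0.48, limma adjusted p = 0.0556), which passed with edgeR (adjusted p = 0.0306), with DESeq2 (adjusted p = 0.00638) and without library 825 (limma adjusted p = 0.0266). Without library 822 it was -0.93 (limma adjusted p = 0.159). Without library 822, Tgfbr2 and Smad3 passed beside Tgfb2 (limma adjusted p = 0.034 and 0.0433). Groups were apart for Tgfb2 and Tgfb1, 2 of 9 genes compared with 29.7% of all genes. Virgin libraries were all high and parous libraries all low in Clec2d, so parity and split cannot be told apart in these mice.

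Parity in basal cells called 0 of 9 genes in either genotype with limma, where 0% of all genes passed in K8imTmG and 0% in K8iΔRank mice. At an unadjusted p below 0.05 there were 969 and 1036 genes in all. In K8imTmG mice, all on the high side, Skil was lower in parous libraries (-0.73, SE 0.19, limma adjusted p = 0.308), the 1 of 9 genes with groups apart, compared with 9.35% of all genes. In K8iΔRank mice Tgfbr1 was higher in parous libraries (0.79, SE 0.25, limma adjusted p = 0.469), again the 1 of 9 genes with groups apart, compared with 6.1% of all genes. DESeq2 called 44 and 91 genes in all and edgeR 8 and 0, none of them among the 9.

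The difference between genotypes changed with stage in luminal cells for Smad3 and Tgfb3, 2 of 9 genes (against 12.9% of all genes). The difference of Smad3, K8iΔRank minus K8imTmG, was -0.79 in virgin and 0.33 in parous mice, a change of 1.12 (SE 0.29, limma adjusted p = 0.0255). For Tgfb3 the difference turned from 0.84 in virgin to -0.56 in parous mice, a change of -1.39 (SE 0.36, limma adjusted p = 0.0243). With the side of the split as a term the changes were 0.85 (limma adjusted p = 0.309) and -0.76 (limma adjusted p = 0.447). Both calls were also lost without parous K8iΔRank library 794, virgin K8iΔRank library 821 or virgin K8imTmG library 533 or 538, and that of Smad3 without K8iΔRank library 830 or 825 (limma adjusted p = 0.0519 to 0.0711 over these fits). Without virgin K8imTmG library 531 Tgfbr3 passed too (limma adjusted p = 0.0498). In basal cells 0 of 9 genes passed (against 0% of all genes by limma, with 1082 genes at an unadjusted p below 0.05). Skil had a change of 1.13 (SE 0.27, limma adjusted p = 0.313) there and passed with DESeq2 (adjusted p = 0.0186), which called 18 genes in all, while edgeR called 0.

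**Figure D4:**
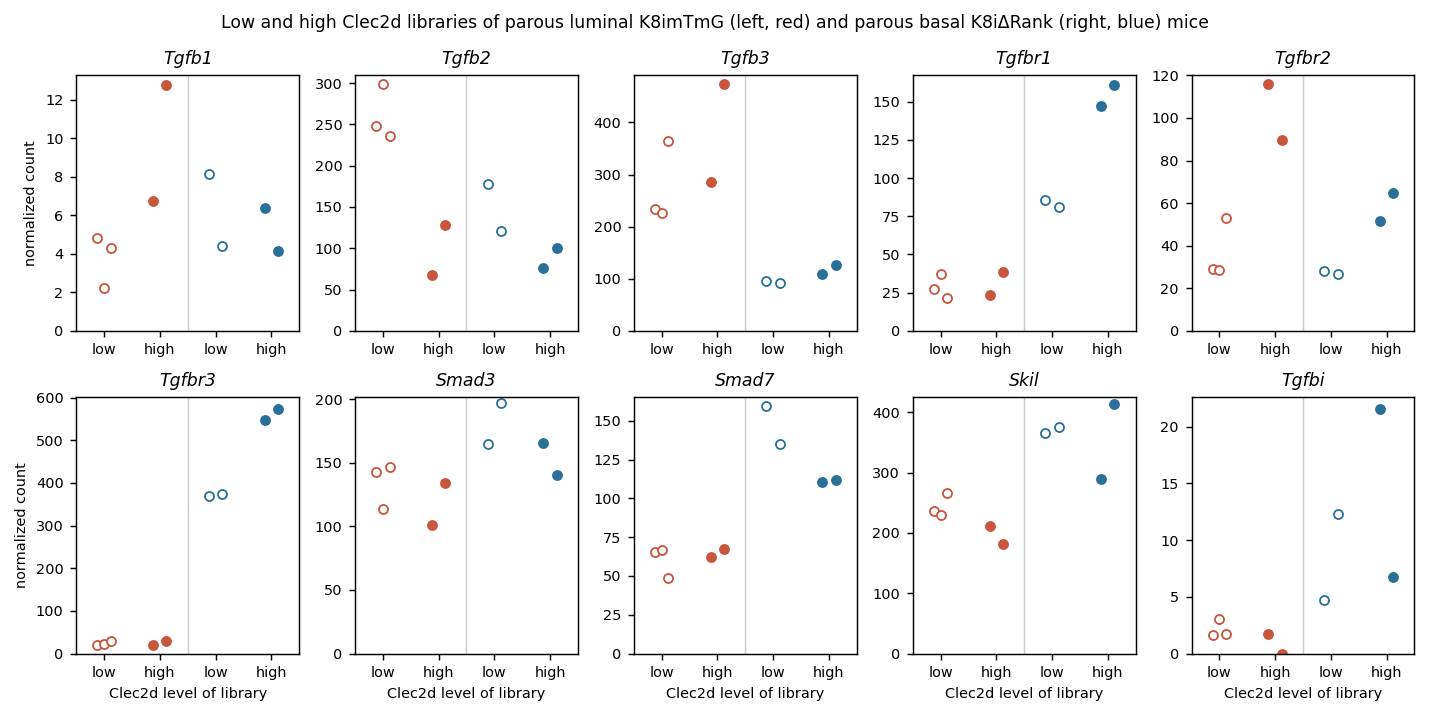
Normalized counts on a linear axis from 0 for each gene in the groups that held libraries of both Clec2d levels, 3 low and 2 high parous luminal K8imTmG libraries (red) and 2 low and 2 high parous basal K8iΔRank libraries (blue). Tgfb2 is higher and Tgfbr2 lower in the low libraries of both groups. In basal cells Tgfb3, Tgfbr1 and Tgfbr3 are lower and Smad7 higher in the low libraries. In luminal cells Tgfb1 is lower and Skil higher in the low libraries.

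The other genes of the pathway were counted in 6 lists with 91 genes, of which 71 were in the table. Over all groups 11 were higher in luminal and 40 in basal cells, together 71.8% of the 71 against 55.7% of all genes (28.7% in the luminal and 27% in the basal direction), and the median log2 difference was -0.64 against 0.04 over all genes. Among Smad target genes 1 of 17 was higher in luminal and 14 in basal cells, with a median of -2.39. They included the contractile gene Tagln (-6.15, limma adjusted p = 2.06e-22), the transcription factor Snai2 (-6.48, limma adjusted p = 4.87e-21), the intermediate filament gene Vim (-4.90, limma adjusted p = 1.32e-23) and the focal adhesion gene Tgfb1i1 (-5.43, limma adjusted p = 4.01e-23), all of which are also known as basal or mesenchymal genes. Genes of latency and activation were split, with 3 of 12 higher in luminal cells, among them Ltbp1, which binds latent TGF-β to the matrix (3.15, limma adjusted p = 5.96e-11), and 7 higher in basal cells. Of the other receptors 1 of 9 was higher in luminal cells, the bone morphogenetic protein receptor Bmpr1b (3.31, limma adjusted p = 9.23e-11), and 3 in basal cells. Among other Smads 1 of 5 was higher in luminal and 3 in basal cells, with a median of -0.18. Regulators of receptors and Smads had 3 of 19 higher in luminal cells, first of all Nedd4l, a ubiquitin ligase for activated Smads (2.17, limma adjusted p = 1.95e-15), and 7 higher in basal cells. Of 9 bone morphogenetic protein and activin ligands and antagonists, Inhbb (4.45, limma adjusted p = 1.63e-10) and Bmp3 (3.64, limma adjusted p = 1.16e-09) were higher in luminal and 6 in basal cells, where the activin antagonist Fst had a difference of -6.09 (limma adjusted p = 2.99e-19).

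Within each condition more genes of the lists were higher in basal than in luminal cells. In virgin K8imTmG mice 6 of 71 genes were higher in luminal and 32 in basal cells (53.5% in all, against 36.2% of all genes). The counts were 5 and 30 of 67 in parous K8imTmG mice (52.2% against 30.7%), 7 and 35 of 70 in virgin K8iΔRank mice (60% against 35.9%) and 5 and 34 of 70 in parous K8iΔRank mice (55.7% against 37%). Ccn2, a matricellular Smad target, had a luminal minus basal difference of -9.16 (limma adjusted p = 2.99e-06) in virgin K8imTmG mice, Vim -5.10 in parous K8imTmG mice, Tgfb1i1 -6.24 in virgin K8iΔRank mice and Vim -5.10 in parous K8iΔRank mice, each the basal gene of lowest adjusted p. Bmp3, Bmpr1b, Inhbb, Ltbp1 and Nedd4l led the genes higher in luminal cells in these comparisons. Ccn2 in virgin K8imTmG and Tgfb1i1 in virgin K8iΔRank mice passed the filter through basal values alone. Bmp3, Bmpr1b and, in parous K8imTmG mice, Ltbp1 passed it through luminal values alone.

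Between genotypes in virgin luminal cells 1 of 59 genes of the lists passed (against 0.984% of all genes), the cell cycle inhibitor Cdkn1a, lower in K8iΔRank cells (-1.73, limma adjusted p = 0.0349), and in parous luminal cells 0 of 58 (against 0.0991%). Virgin basal cells had 6 of 68 called (8.82% against 8.99% of all genes), with 3 higher in K8iΔRank libraries, Bmp7 (1.12, limma adjusted p = 0.029), Fstl1 (1.12, limma adjusted p = 0.0347) and the integrin gene Itgav (0.83, limma adjusted p = 0.0385), and 3 lower, among them the Smad targets Junb (-1.46, limma adjusted p = 0.00853) and Ccn2 (-3.84, limma adjusted p = 0.0189). In parous basal cells 2 of 68 passed (2.94% against 0.906%), the Smad targets Angptl4 (1.24, limma adjusted p = 0.0436) and Cdkn1a (1.501, limma adjusted p = 0.0436), both higher in K8iΔRank libraries. With parity in luminal K8imTmG cells 3 of 58 passed (5.17% against 2.2%), and 1 was higher, the activating integrin gene Itgb8 (1.44, limma adjusted p = 0.0286), and 2 were lower, Itgav (-1.35, limma adjusted p = 0.0285) and the endothelial co-receptor gene Eng (-3.79, limma adjusted p = 0.0397). In luminal K8iΔRank cells 11 of 58 passed (19.0% against 16%), and 9 were higher after parity, led by Fstl3 (2.19, limma adjusted p = 0.00387), Ltbp3 (1.15, limma adjusted p = 0.00392) and Ltbp2 (1.81, limma adjusted p = 0.0078), and 2 lower, Junb (-1.41, limma adjusted p = 0.00676) and the activin receptor gene Acvr1b (-0.84, limma adjusted p = 0.0446). Fstl3 passed the filter there through its parous values alone. None of the 66 and 68 genes tested passed with parity in basal cells by limma. In luminal cells the genotype difference changed with stage for 10 of 58 genes (17.2% against 12.9%), for 8 upward, led by Itgav (2.18, limma adjusted p = 0.00765), Ltbp3 (1.70, limma adjusted p = 0.0109) and Cdkn1a (2.49, limma adjusted p = 0.0121), and for 2 downward, Junb (-2.30, limma adjusted p = 0.0174) and Ccn2 (-4.24, limma adjusted p = 0.0391). Luminal values of Ccn2 were low and rest on few reads, at 0.736 to 1.28 in virgin K8imTmG and 1.92 to 11.4 in virgin K8iΔRank libraries. In parous luminal libraries Ccn2 lay at 1.32 to 41.5 in K8imTmG and 0 to 3.81 in K8iΔRank mice. In basal cells the genotype difference changed with stage for 0 of 68 by limma. The virgin luminal and virgin basal genotype comparisons and luminal parity in K8iΔRank mice each set 1 side of the Clec2d split against the other. For the genes of the lists, condition and split cannot be told apart in these. The luminal interaction includes the same virgin luminal groups, and fits with the side as a term are not given for these genes.

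After subtraction of lineage means, Pearson's r over the 30 libraries, which share a split in Clec2d and differ in depth, was highest for Tgfb3 with Tgfbr3 (0.72), Tgfbr1 with Tgfbr3 (0.62) and Tgfb3 with Tgfbr1 (0.56), and lowest for Tgfbr1 with Smad3 (-0.69) and Tgfb2 with Tgfbr2 (-0.66). The 2 genes most like each in the whole table, with r in brackets, were Pvt1 (0.77) and Dnajc30 (0.76) for Tgfb1, Chst1 (0.90) and Acaca (0.87) for Tgfb2 and Lix1l (0.84) and Fads2 (0.82) for Tgfb3. For the receptors they were Hnrnph1 (0.80) and Slc6a15 (0.78) for Tgfbr1, Rnf11 (0.89) and Acap2 (0.85) for Tgfbr2 and Fads2 (0.87) and Cxcl1 (0.87) for Tgfbr3. For Smad3 they were Ccdc97 (0.76) and Cnppd1 (0.75), for Smad7 Zfp503 (0.78) and Cytip (0.76), for Skil Bcl2l11 (0.79) and Fosl2 (0.78) and for Tgfbi Ogn (0.73) and Bcas1 (0.72). Fads2, which encodes a fatty acid desaturase, thus stood among the most similar genes of both Tgfb3 and Tgfbr3.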

How the data were processed

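Luminal and basal mammary cells of single mice were profiled by QuantSeq 3′ sequencing. Per the labels and methods, the authors aligned reads to GRCm39 with Bowtie2, removed duplicates with UMI-tools, counted with GENCODE vM26 and divided by DESeq2 size factors. The deposited values are a signal, normalized counts of 11137 genes. In each library 100% of values were whole multiples of 1 step (relative tolerance 1e-06), so reads were recovered. Coordinates are those of GENCODE vM39.

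Groups were compared with limma 3.58.1 (mean-variance trend) on log2(normalized count + 1), for genes that exceeded 10 in 25% or more of the libraries in a fit; p-values were adjusted over all genes tested (Benjamini-Hochberg, threshold 0.05). Pairwise and within-condition comparisons used 2 groups, interactions the 15 libraries of a lineage, and the overall lineage contrast all 30 as 8 group means. Alternatives were pseudocounts of 0.5 and 4, no filter, edgeR 4.0.16 and DESeq2 1.42.0 on recovered reads, each mouse or library left out, all libraries of a lineage (or all 30) in 1 fit, 1 side of the Clec2d split, the side as a term, and a replicate block. Libraries of 1 mouse number come from the same animal. Their deviations from group means correlated at -0.24 to 0.34 (median 0.09) over genes in 13 mice. The test was tried on simulated data. Versions were R 4.3.3, matplotlib 3.10.9, pandas 2.3.3, numpy 2.4.6 and Python 3.11.15.

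The 10 genes, the pathway and marker lists and the tests were chosen with earlier results of these data known. All 10 genes are named in every comparison. Of the lists, up to 5 genes per direction are named over all groups and up to 3 elsewhere, by lowest adjusted p, except that 1 named gene is not reported here. Likeness names the 2 genes of highest Pearson's r. The sides of the split are those of the widest gap of Clec2d on the log2 scale.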

Additional observations from a re-analysis of the deposited data

Results flagged for a closer look

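A library far from the others of its group was found for 4 of the 50 combinations of gene and group with 4 or 5 libraries, where chance gives about 1 in 20. Tgfb1 was 19.6 in virgin basal K8iΔRank library 820 against 3.72 to 4.30 in the other 3. Mouse 787 stood apart among parous luminal K8iΔRank libraries for Smad3, at 131 against 166 to 171, and for Smad7, at 76.9 against 36.8 to 40.7. Smad7 was 48.5 in parous luminal K8imTmG library 558 against 62.2 to 67.1 in the other 4. The genotype difference in luminal cells differed between stages for Smad3, by 1.12 on the log2 scale, and for Tgfb3, by -1.39, in the interaction test by limma (adjusted p = 0.0255 and 0.0243), and neither passed with the side of the Clec2d split as a term.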

How the results depend on the processing

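No value changed sign while called. Among recomputed differences of the 10 genes under settings other than leave-one-out, 887 kept their side of the threshold (uncalled ones moving by less than the spread between replicates), 9 lost and 22 gained a call, and 8 uncalled values moved by more than that spread. With DESeq2, 3 genes passed for luminal parity in K8imTmG (0 with limma), 2 for luminal parity in K8iΔRank (1), 2 for virgin basal genotype (1), 1 for parous basal genotype (0) and 1 for the basal interaction of genotype and stage (0). With edgeR on recovered reads 2 passed for luminal parity in K8iΔRank, and between lineages over all groups it called 6219 genes (6197 with limma). With all libraries of the lineage in 1 fit, 2 passed for luminal parity in K8imTmG, 0 for that in K8iΔRank and 2 for virgin basal genotype. On the low side of the split 3 passed for luminal parity in K8imTmG, and with the side as a term 0 for the luminal interaction (2 without). Leaving out 1 library gave 0 to 3 genes for luminal parity in K8imTmG, 1 to 3 for that in K8iΔRank, 0 to 1 for virgin and 0 to 2 for parous basal genotype, 0 to 3 for the luminal interaction, and, between lineages, 4 to 8 in virgin K8iΔRank, 4 to 5 in parous K8imTmG, 4 to 6 in parous K8iΔRank mice and 5 to 7 over all groups. With the replicate block, 3, 5, 6 and 4 genes passed between lineages in virgin K8imTmG, parous K8imTmG, virgin K8iΔRank and parous K8iΔRank mice, and 5 over all groups. The block keeps only mice with both lineages, so in virgin K8iΔRank mice it also drops basal library 820. Without 820 and with no block, 7 genes passed there, Tgfb1 was called and Tgfbr2 and Tgfbi were not, as with the block, and Tgfbr1 alone changed between these fits (limma adjusted p = 0.04999 without and 0.0557 with the block). In both fits only luminal values of Tgfb1 exceeded 10. The block changed no other call of a gene tested with it, and Tgfb1 was not tested with it over all groups. Over all genes, calls under settings other than leave-one-out ran from 5 to 648 for virgin luminal genotype (99 with limma), 10 to 611 for parous luminal genotype (10), 106 to 1285 and 222 to 1857 for luminal parity in K8imTmG (226) and K8iΔRank (1643), 870 to 1803 for virgin (954) and 0 to 645 for parous basal genotype (96), and 5 to 1990 for the luminal interaction (1326). The causes were not tested. Counts of the 10 genes under these settings are given without the share of all genes called in the same fit. Whether they follow the number of calls over all genes was not tested. Depth limits Tgfb1 and Tgfbi, with at most 3 reads in several libraries.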
